A study of Mus musculus with 6 samples.

Results

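Expression of the genes for the NF-kappaB subunits and their feedback inhibitors was compared in CD8 T cells sorted from the pancreas of mice that differ in a beta cell transgene. The set is defined by gene name, by a rule that uses no measured value, although it was drawn up with earlier results of these data known. Its 10 genes are the subunit genes Nfkb1, Nfkb2, Rel, Rela and Relb, and the inhibitor genes Nfkbia, Nfkbid, Nfkbie, Nfkbiz and Tnfaip3. Of these, 9 had a probe annotated with their symbol alone, among 19929 such genes on the array, and Nfkb1 was not analysed here. Each of the 9 had 1 such probe, and all 9 were among the 13950 genes bright enough to test.

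All cells carried AI4, a transgenic T cell receptor for a beta cell antigen, on the C57BL/6.H2g7/g7 background. AI4 mice developed type 1 diabetes. Rip-B7xAI4 mice were resistant to diabetes and also carried Rip-B7x, in which the rat insulin promoter drives the inhibitory ligand B7x (Vtcn1) on beta cells. Cells from pooled pancreata were sorted by CD8 and a MimA2/H-2Db tetramer. Each group had 3 single-colour Affymetrix arrays, labelled as biological replicates, and the sources used here give neither the ages nor the numbers of mice. Transgene and disease state go together in these groups, so their effects cannot be told apart.

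NF-kappaB is a family of dimeric transcription factors that antigen receptor, costimulatory and cytokine signals activate in T cells. In resting cells inhibitory proteins of the IkappaB family hold the dimers in the cytoplasm. A kinase complex marks these inhibitors for degradation, and the freed dimers enter the nucleus and bind kappaB sites in DNA. Among their targets are the genes of several inhibitors, which closes a negative feedback loop. Much of this control acts on protein stability and location, which an RNA measurement does not see.

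The kappaB sites of this loop can be read in the promoters of the genes themselves. RefSeq promoter windows of build GRCm38.p6, from 250 bases before to 50 after an annotated start, were found for 7 of the genes, in 12 windows of 300 bases. The degenerate kappaB consensus was searched on both strands, and overlapping matches were counted separately. It matched in 6 of the 7 genes (Nfkb2, Rel, Nfkbia, Nfkbid, Nfkbie and Tnfaip3) and not in Rela. Of the 12 windows 8 held a match, against 4.51% of all 32851 windows, and 2 of the 3 Nfkb2 windows overlap and share a match. The best-known feedback gene, Nfkbia, is shown as its whole window, and the other 5 as 60 bases around the match nearest upstream of the start. Capitals mark the consensus matches, and each sequence reads 5′ to 3′ on the strand of its gene. Nfkbia (chr12:55492598-55492897, minus strand) has its match 29 bases before the start, Tnfaip3 (chr10:19015393-19015452, minus strand) has one at 12 bases and Nfkb2 (chr19:46304696-46304755, plus strand) at 11 bases. Rel (chr11:23771031-23771090, minus strand), Nfkbid (chr7:30422195-30422254, plus strand) and Nfkbie (chr17:45555564-45555623, plus strand) have theirs farther upstream, at 91, 181 and 106 bases.
Nfkbia: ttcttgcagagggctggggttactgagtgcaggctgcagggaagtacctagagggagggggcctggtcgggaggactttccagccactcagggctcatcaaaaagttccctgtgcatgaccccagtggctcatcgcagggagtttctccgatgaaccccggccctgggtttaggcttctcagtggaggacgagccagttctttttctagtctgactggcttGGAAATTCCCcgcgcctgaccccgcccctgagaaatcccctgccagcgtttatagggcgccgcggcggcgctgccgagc
Tnfaip3: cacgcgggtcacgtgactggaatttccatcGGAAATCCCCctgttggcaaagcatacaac
Rel: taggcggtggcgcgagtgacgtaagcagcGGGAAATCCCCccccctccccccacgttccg
Nfkb2: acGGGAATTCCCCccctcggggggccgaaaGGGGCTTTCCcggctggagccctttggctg
Nfkbid: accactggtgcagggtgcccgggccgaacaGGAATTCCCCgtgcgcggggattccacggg
Nfkbie: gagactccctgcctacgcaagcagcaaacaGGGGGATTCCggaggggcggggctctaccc
The 10 bases GGAAATCCCC occur in both the Tnfaip3 and the Rel sequence. A match describes these letters and does not show binding in the sorted cells, and the lack of one in Rela says only that the letters are not in its windows.

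The sorted cells carried T cell transcripts on every array. The mean of 10 measured T cell markers was 9.65 to 10.30 log2 in AI4 and 9.57 to 10.29 in Rip-B7xAI4. Single T cell markers lay on both sides of 0, with 0 of 10 passing. The brightest, Cd2, Cd3g and Cd3d, differed by -0.02 ± 0.21 (SE), 0.41 ± 0.37 and 0.18 ± 0.38, with overlapping groups. The largest differences were in other markers. The CD8 genes Cd8b1 and Cd8a differed by -1.001 ± 0.39 (SE) and -0.69 ± 0.35, with overlapping groups, and Lat, a T cell receptor adaptor, by -0.80 ± 0.39. Cd3e, a chain of the T cell receptor complex, differed by 0.88 ± 0.42 and was higher on every Rip-B7xAI4 array, on replicate 3 only barely. It was at 9.11, 10.50 and 10.59 in AI4 and at 11.19, 11.01 and 10.65 in Rip-B7xAI4. AI4 replicate 1, far below the other arrays for Cd3e, was also the lowest for Cd3d and Cd3g. Myeloid markers set 2 arrays apart. In Rip-B7xAI4 replicates 1 and 3 the 20 myeloid markers averaged 8.63 and 8.55, whereas they averaged 5.96 in Rip-B7xAI4 replicate 2 and 5.87 to 6.36 in AI4. All 19 tested myeloid markers had a positive difference, as had all 6 tested neutrophil markers, whose mean was 8.17, 5.78 and 8.01 on the Rip-B7xAI4 arrays and 5.56 to 5.62 in AI4. Dendritic cell markers stood highest in Rip-B7xAI4 replicate 3, at 7.93 against 5.79 to 6.76 on the other arrays. Single markers of these lists went both ways on Rip-B7xAI4 replicate 2. Cd68 (7.35), S100a9 (7.68) and Itgax (6.73) exceeded every AI4 array there, where the highest AI4 values were 6.49, 7.29 and 5.86. Csf1r (5.49) and Cd14 (5.27) lay below every AI4 array. B cell markers averaged 6.44 and 6.47 in Rip-B7xAI4 replicates 1 and 3, against 5.54 in replicate 2 and 5.59 to 6.05 in AI4. The means of endocrine markers (5.51 to 6.04), acinar markers (5.84 to 6.03), stromal and endothelial markers (5.79 to 6.66) and CD4 T cell markers (5.57 to 6.06) can be set beside array medians of 5.94 to 6.10. NF-kappaB genes are also expressed in myeloid cells, and in bulk RNA fewer cells of a type and less RNA per cell cannot be told apart. For the 9 genes, and for pathway genes where it moved the value by over 1.5 times or the gene is described at length, the difference is also given without Rip-B7xAI4 replicates 1 and 3. That leaves 1 Rip-B7xAI4 array, assumed to vary like AI4. The SE of such a value holds no spread between Rip-B7xAI4 arrays and can be too small.

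The comparison asks whether the RNA for the NF-kappaB system differed in diabetogenic T cells when beta cells carried B7x. None of the 9 genes passed. Differences between groups, as Rip-B7xAI4 minus AI4, ran from -0.14 for Relb to 0.67 for Nfkbiz on the log2 scale, with adjusted p of 0.575 to 0.988 (limma, Benjamini-Hochberg over all genes tested). Of the 9 genes 0 had an adjusted p under 0.05, where 0.00717% of all genes tested did, and 0 had an unadjusted p under 0.05, where 8.73% of all genes did. Nfkbia was the only 1 of the 9 whose 3 Rip-B7xAI4 arrays were each above every AI4 array, an arrangement found for 5.99% of genes tested, and 0 had all arrays below, found for 11.9%. The difference was positive for 7 of 9, while it was positive for 39.0% of all genes tested. The median over the 9 was 0.31, beside -0.10 over all genes tested. Values also differed in spread, with an interquartile range of 1.71 on AI4 replicate 1 and 2.13 log2 on Rip-B7xAI4 replicate 1. After quantile normalization the inhibitor differences were 0.27 (Nfkbia), 0.18 (Nfkbid), -0.13 (Nfkbie), 0.50 (Nfkbiz) and 0.28 (Tnfaip3). Those of the subunits were -0.08 (Nfkb2), 0.33 (Rel), 0.09 (Rela) and -0.09 (Relb), beside a median of -0.10 over all genes tested. With 3 arrays against 3 an exact permutation test cannot give p below 0.1, and so few arrays limit how precise any value can be.

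**Figure D1:**
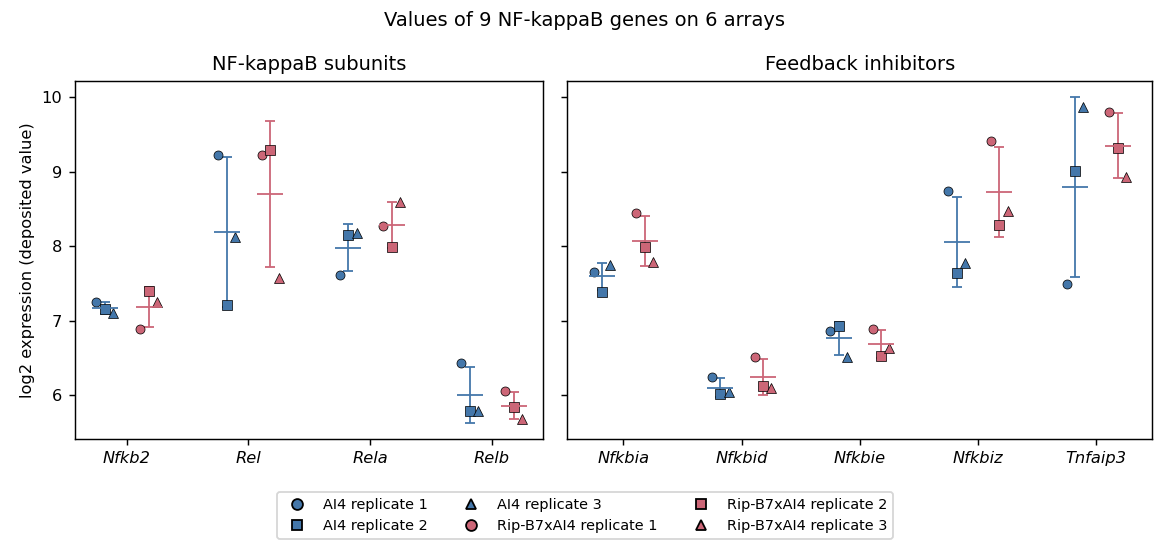
Deposited log2 expression (vertical axis) of 4 subunit genes and 5 inhibitor genes on each of 6 arrays. Points are single arrays with a symbol per replicate number, horizontal bars are group means and whiskers 1 SD (n = 3). Levels of different genes come from different probes and are not to be compared. The groups overlap for every gene but Nfkbia, and Rel and Tnfaip3 spread over 2.08 and 2.37 log2.

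Nfkbia encodes IkappaB-alpha, the inhibitor that NF-kappaB itself induces soon after activation. Its values were 7.66, 7.39 and 7.74 log2 in AI4 replicates 1 to 3, and 8.44, 7.98 and 7.79 in Rip-B7xAI4 replicates 1 to 3. The groups did not overlap, but the lowest Rip-B7xAI4 array and the highest AI4 array were only 0.048 apart. The means were 7.59 ± 0.18 (SD, n = 3) and 8.07 ± 0.33 (SD, n = 3). The difference was 0.48 ± 0.22 (SE), with a 95% interval of -0.06 to 1.01 and an adjusted p = 0.575 by limma, and the exact two-sided permutation p was 0.1, the smallest the design allows. The Rip-B7xAI4 array with a low myeloid marker mean, replicate 2, lay above all 3 AI4 arrays. Without Rip-B7xAI4 replicates 1 and 3 the difference was 0.39 ± 0.28, and it was 0.37 ± 0.33 with a covariate for the mean of the myeloid markers. After quantile normalization the difference was 0.27 ± 0.18 and the groups overlapped.

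Nfkbiz encodes IkappaB-zeta, a nuclear member of the family that acts as a cofactor at some NF-kappaB targets. It had the largest difference of the 9. AI4 replicates 1 to 3 stood at 8.74, 7.64 and 7.78, and Rip-B7xAI4 replicates 1 to 3 at 9.41, 8.28 and 8.47. In both groups replicate 1 was about 1 log2 unit above the others, and AI4 replicate 1 exceeded 2 Rip-B7xAI4 arrays, so the groups overlapped. The difference was 0.67 ± 0.41 (SE), with a 95% interval of -0.30 to 1.64 and an adjusted p = 0.590 by limma. It was 0.23 ± 0.52 without Rip-B7xAI4 replicates 1 and 3, 0.19 ± 0.51 with the myeloid covariate and 1.01 ± 0.37 without AI4 replicate 1. The highest value of all 6 was on Rip-B7xAI4 replicate 1, where myeloid markers were also highest, and the part of myeloid RNA in it was not tested further.

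Tnfaip3 encodes a ubiquitin-editing enzyme that shuts off signalling upstream of the kinase complex. It varied most within AI4, with 7.50, 9.01 and 9.87 in replicates 1 to 3, and stood at 9.80, 9.32 and 8.92 in Rip-B7xAI4. AI4 replicate 1 was far below the other 5 arrays, and the highest value of all was also in AI4. The group SD was 1.20 in AI4 and 0.44 in Rip-B7xAI4 (n = 3 each). The difference of 0.56 ± 0.59 (SE) had a 95% interval of -0.85 to 1.96 and an adjusted p = 0.688 by limma. It rested on AI4 replicate 1, without which it was -0.09 ± 0.37. Without Rip-B7xAI4 replicates 1 and 3 it was 0.53 ± 0.95.

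The 2 remaining inhibitors varied little. Nfkbid, a nuclear IkappaB protein that T cell receptor signals induce, was at 6.25, 6.02 and 6.04 in AI4 and at 6.52, 6.13 and 6.09 in Rip-B7xAI4. The highest array of each group was replicate 1, and the other 4 lay close together. Array medians were 5.94 to 6.10, and how far the Nfkbid values lie above background is not known. Little variation there need not mean stable RNA. The Nfkbid difference was 0.14 ± 0.19 (SE), with a 95% interval of -0.31 to 0.59, and 0.02 ± 0.26 without Rip-B7xAI4 replicates 1 and 3. Nfkbie, which encodes the cytoplasmic inhibitor IkappaB-epsilon, was at 6.86, 6.92 and 6.51 in AI4 and at 6.89, 6.53 and 6.63 in Rip-B7xAI4. Its groups overlapped throughout, and the difference was -0.08 ± 0.20 (SE), with a 95% interval of -0.55 to 0.38, and -0.24 ± 0.29 without those arrays. The median difference over the 5 inhibitors was 0.48.

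Among the subunits, Rel had the widest spread. It encodes c-Rel, an activating subunit of lymphocytes that supports cytokine genes and division. The AI4 arrays stood at 9.22, 7.21 and 8.12, and the Rip-B7xAI4 arrays at 9.23, 9.29 and 7.57. High and low arrays occurred in both groups, with 3 arrays above 9 and 2 below 8. The difference was 0.51 ± 0.64 (SE), and its 95% interval, -1.02 to 2.04, includes both a halving and a doubling. Leaving out 1 array at a time gave 0.02 (without AI4 replicate 2) to 1.07 (without Rip-B7xAI4 replicate 3), and the value was 1.11 ± 0.81 without Rip-B7xAI4 replicates 1 and 3. Rel on Rip-B7xAI4 replicate 2, with a low myeloid marker mean, was the highest of all arrays.

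Rela encodes p65, the most widely used activating subunit. It was at 7.62, 8.15 and 8.18 in AI4 and at 8.28, 7.98 and 8.60 in Rip-B7xAI4. All 3 Rip-B7xAI4 arrays exceeded the AI4 mean of 7.98 ± 0.32 (SD, n = 3), replicate 2 only barely, and the groups overlapped. The difference was 0.31 ± 0.24 (SE), with a 95% interval of -0.28 to 0.89. It was 0.01 ± 0.34 without Rip-B7xAI4 replicates 1 and 3, which held the highest 2 values, and 0.09 ± 0.34 with the myeloid covariate. The part of myeloid RNA in these values was not tested further.

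Nfkb2 and Relb belong to the slower, noncanonical branch of the pathway, in which the Nfkb2 precursor is processed and its product pairs with RelB. Nfkb2 was at 7.26, 7.16 and 7.11 in AI4 and at 6.89, 7.40 and 7.26 in Rip-B7xAI4. The Rip-B7xAI4 arrays lay on both sides of the AI4 arrays. The difference, the smallest of the 9, was 0.01 ± 0.19 (SE), with a 95% interval of -0.45 to 0.46, and it was 0.23 ± 0.25 without Rip-B7xAI4 replicates 1 and 3. Relb was at 6.44, 5.79 and 5.79 in AI4 and at 6.06, 5.84 and 5.69 in Rip-B7xAI4. Only AI4 replicate 1 stood clear of the rest. The difference was -0.14 ± 0.24 (SE), with a 95% interval of -0.71 to 0.42, and it was 0.07 ± 0.19 without AI4 replicate 1. Leaving out Rip-B7xAI4 replicates 1 and 3 gave -0.16 ± 0.37. The median difference over the 4 measured subunits was 0.16.

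**Figure D2:**
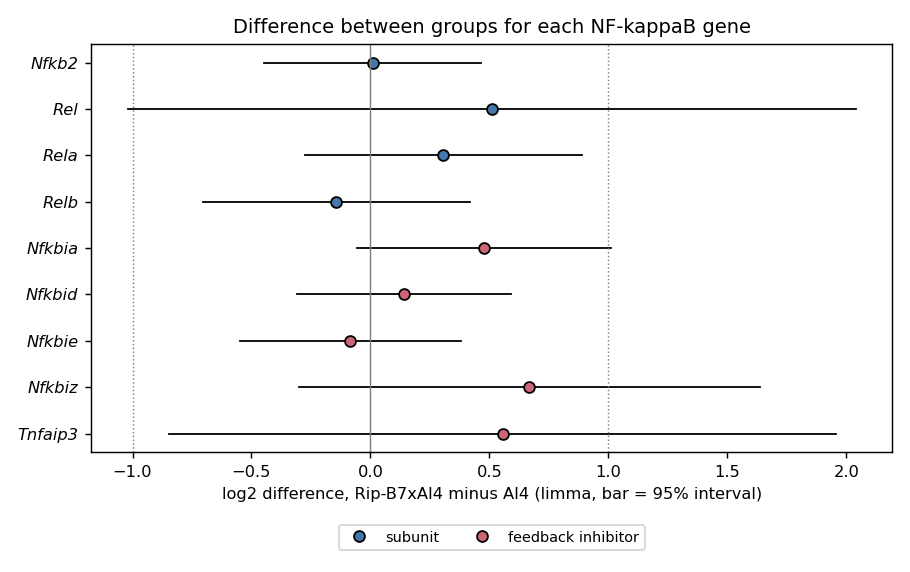
Log2 difference between groups, Rip-B7xAI4 minus AI4 (horizontal axis), for each of 9 genes, with blue points for subunits and red points for inhibitors. Bars are 95% intervals from limma, and dotted lines mark a halving and a doubling. Every interval includes 0, and those of Nfkb2, Rela, Relb, Nfkbid and Nfkbie lie between the dotted lines.

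The intervals show which sizes of change these arrays excluded. For 5 of the 9 genes (Nfkb2, Rela, Relb, Nfkbid and Nfkbie) the 95% interval excluded both a halving and a doubling, as it did for 65.6% of all genes tested. For Nfkbia the interval just reached a doubling. For Rel, Nfkbiz and Tnfaip3 a doubling lay well inside the interval and was not excluded. The exclusions need not hold under the alternatives, where some SEs were larger. Rela differed by 0.46 ± 0.27 (SE) without Rip-B7xAI4 replicate 2, and Relb by -0.21 ± 0.35 with the myeloid covariate. Nfkbid and Relb also lay close to the array medians, and how far they lie above background is not known. The within-group SD was 0.993 for Rel, 0.905 for Tnfaip3 and 0.603 for Nfkbiz, at the 96.3, 94.9 and 84.2 percentiles of all genes tested. It was 0.195 for Nfkb2, 0.190 for Nfkbid and 0.205 for Nfkbie, beside a median of 0.288 over all genes tested.

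Array by array, the genes did not share 1 pattern. On Rip-B7xAI4 replicate 1, 8 of the 9 genes were above their own mean over the 6 arrays, the exception being Nfkb2. On AI4 replicate 2, 7 of 9 were below it. AI4 replicate 1 was the lowest array for Tnfaip3 (-1.57 from its mean) and Rela (-0.52), the highest for Relb (0.50), and high for Rel (0.78). On Rip-B7xAI4 replicate 3 Rela was at its highest (0.46 above its mean), while Rel was 0.87 below its own. Averaged over the 5 inhibitors, the AI4 arrays stood at 7.40, 7.40 and 7.59 and the Rip-B7xAI4 arrays at 8.21, 7.65 and 7.58. Averaged over the 4 subunits, the AI4 arrays stood at 7.63, 7.08 and 7.30 and the Rip-B7xAI4 arrays at 7.61, 7.63 and 7.28. Both means overlapped between groups.

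**Figure D3:**
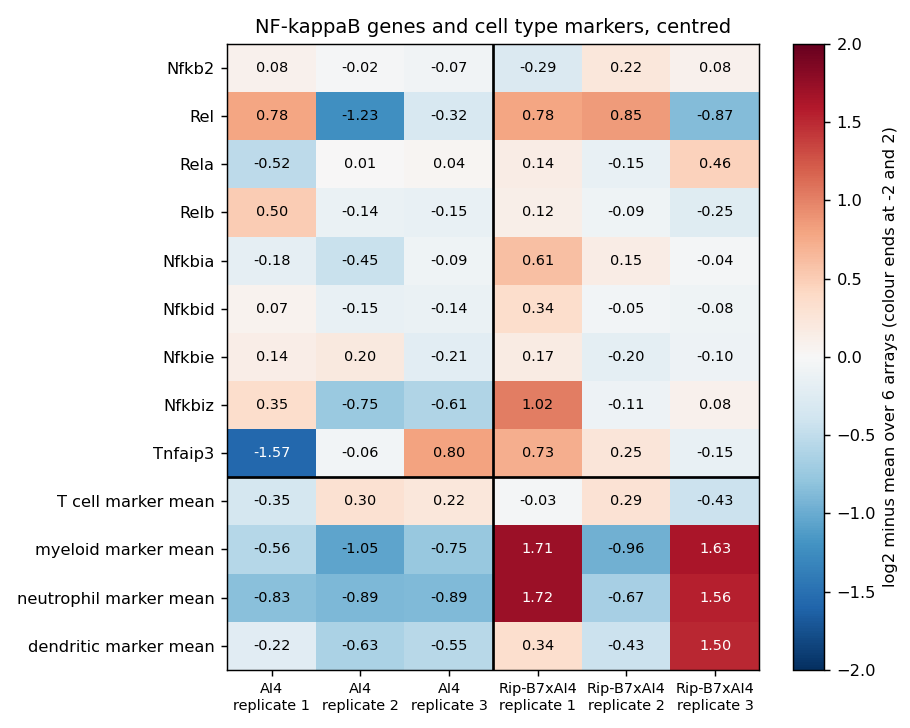
Log2 expression of each gene minus its mean over 6 arrays, with arrays in columns and genes in rows, and below the line the means of marker lists treated the same way. Colour and printed numbers show the same values, and the colour scale ends at -2 and 2. Myeloid and neutrophil markers are high on Rip-B7xAI4 replicates 1 and 3, and Rela is the only NF-kappaB gene with its highest 2 values there.

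For the 3 genes with the smallest p, the tested genes with the most similar profile were found by the root mean square difference over the 6 arrays after centring each gene. For Nfkbia these were Fam98b (0.056 log2), Hus1 (0.060) and Gadd45b (0.065), where the median over all genes was 0.47. Hus1 takes part in the DNA damage checkpoint, and Gadd45b is a stress gene that is also on the list of NF-kappaB targets used here. For Nfkbiz they were Pnp (0.088), an enzyme of purine salvage, Il2ra (0.16), the interleukin-2 receptor alpha chain and another listed target, and Carhsp1 (0.17). For Rela they were Sp1 (0.048), a general transcription factor, Fez2 (0.057) and Cylc2 (0.097). Among 13950 genes and 6 arrays close neighbours are always found, and likeness is given as a description.

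Upstream of the subunits, 9 of 10 kinase genes were measured and tested and 0 passed. Their median difference was -0.19, and 1 had an unadjusted p under 0.05, in the lower direction, where 3.17% of all genes did. This was Ikbkb, the catalytic kinase of the canonical branch. It was at 7.60, 7.39 and 7.73 in AI4 and at 7.32, 6.89 and 6.79 in Rip-B7xAI4, all lower, with a difference of -0.57 ± 0.21 (SE) and an adjusted p = 0.540 by limma. Without Rip-B7xAI4 replicates 1 and 3 the Ikbkb difference was -0.69 ± 0.27. Tab1, a partner of the upstream kinase gene Map3k7, was also lower on all Rip-B7xAI4 arrays, by -0.28 ± 0.18. Its highest Rip-B7xAI4 array (6.25) lay close to its lowest AI4 array (6.30). All arrays were lower for 2 of the 9 kinase genes, as for 11.9% of all genes tested. Map3k7 itself differed by -0.33 ± 0.28 and Tbk1 by 0.43 ± 0.40, with overlapping groups. Without Rip-B7xAI4 replicates 1 and 3 Map3k7 differed by -0.88, which rests on 1 Rip-B7xAI4 array, and without Rip-B7xAI4 replicate 2 by -0.06. Tbk1 differed by -0.0052 without AI4 replicate 1 and by 0.79 without AI4 replicate 3.

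Of 17 tested adaptor genes, 0 passed and the median difference was -0.10. For 1 of them all Rip-B7xAI4 arrays were above all AI4 arrays, as for 5.99% of all genes tested. For 3 all were below, as for 11.9% of all genes tested. Prkcq encodes protein kinase C theta, which links the T cell receptor to NF-kappaB. It was at 9.53 to 10.13 in AI4, and at 9.25, 9.26 and 8.56 in Rip-B7xAI4 replicates 1 to 3, lower on all 3, with a difference of -0.86 ± 0.27 (SE) and an adjusted p = 0.493 by limma, and -0.63 ± 0.34 without Rip-B7xAI4 replicates 1 and 3. Traf5, an adaptor of TNF family receptors, was higher on all 3, by 0.84 ± 0.32, with an adjusted p = 0.553 by limma. The groups barely separated, with 6.151 on Rip-B7xAI4 replicate 3 and 6.149 on AI4 replicate 1. Sharpin, a subunit of the linear ubiquitin ligase, was lower on all 3, by -0.24 ± 0.16, and by -0.11 ± 0.24 without Rip-B7xAI4 replicates 1 and 3. Its highest Rip-B7xAI4 array was at 8.08 and its lowest AI4 array at 8.16. Myd88, the adaptor of interleukin-1 and Toll-like receptors, differed by 1.29 ± 0.63 with overlapping groups.

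Receptors that signal to NF-kappaB, also listed with earlier results of these data known, had a median difference of 0.39. Of 12 tested, 0 passed, 4 had an unadjusted p under 0.05 in the higher direction, where 5.56% of all genes did, and for these 4 the groups did not overlap, an arrangement with Rip-B7xAI4 higher that 5.99% of all genes tested had. Il18rap and Il18r1, the chains of the interleukin-18 receptor, differed by 1.40 ± 0.43 (SE) and 1.36 ± 0.45. Without Rip-B7xAI4 replicates 1 and 3 these values were 1.09 ± 0.69 for Il18rap and 1.18 ± 0.69 for Il18r1. Tnfrsf9, the costimulatory receptor 4-1BB, was at 6.76, 6.63 and 6.58 in AI4 and at 8.17, 8.31 and 6.95 in Rip-B7xAI4, a difference of 1.15 ± 0.37. Its highest array was Rip-B7xAI4 replicate 2, the one of its group with a low myeloid marker mean. The difference was 1.65 without replicates 1 and 3, which rests on that array alone, and the SD over all Rip-B7xAI4 arrays was 0.75. Tnfrsf1a, the main TNF receptor, differed by 0.40 ± 0.16. Adjusted p for the 4 was 0.486 to 0.564 by limma.

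Only 4 of 11 ligand genes were bright enough to test, and 0 passed. Il1b, a cytokine of myeloid cells, reached 9.83 and 9.25 in Rip-B7xAI4 replicates 1 and 3, against 7.11 in replicate 2 and a range of 6.22 to 7.21 over the AI4 arrays. Tnf reached 7.57 and 7.41 on the same 2 arrays, against 6.31 in replicate 2 and a range of 6.41 to 6.58 over the AI4 arrays. Both were high on the arrays with high myeloid markers and within or below the AI4 range on the third. Without those 2 arrays the difference was 0.36 ± 0.45 (SE) for Il1b and -0.17 ± 0.25 for Tnf. The part of myeloid RNA in these values was not tested. Ltb and Lta, the lymphotoxins, differed by -0.41 ± 0.31 (SE) and -0.33 ± 0.29. Without Rip-B7xAI4 replicates 1 and 3 Ltb turned to 0.13 ± 0.26 and Lta was -0.63 ± 0.31, and without replicate 3 alone these were -0.094 for Ltb and -0.62 for Lta.

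Of 17 further brakes of the pathway, 0 passed and the median difference was 0.07. N4bp1, an inhibitor of NF-kappaB signalling, was at 6.58, 6.53 and 6.46 in AI4 and at 7.83, 7.40 and 7.23 in Rip-B7xAI4. All Rip-B7xAI4 arrays were higher, and the gap to AI4 was wider than the spread within either group. The difference was 0.96 ± 0.20 (SE), with an unadjusted p = 0.00233 and an adjusted p = 0.280 by limma, and it was 0.87 ± 0.24 without Rip-B7xAI4 replicates 1 and 3. Peli1, a ubiquitin ligase that restrains T cell activation, differed by -0.82 ± 0.47, by -0.33 without Rip-B7xAI4 replicate 3 and by -0.46 ± 0.47 without both replicates 1 and 3. Commd1 differed by 0.37 ± 0.21 and Nkrf by 0.23 ± 0.17.

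Known NF-kappaB targets, in a list chosen with earlier results of these data known, held the 1 pathway gene that passed. Of 34 tested, Ccl3, a chemokine of activated CD8 T cells, rose by 3.89 ± 0.22 (SE), with an adjusted p = 0.00973 by limma. It was at 5.54, 5.99 and 6.00 in AI4, against 9.66, 10.02 and 9.51 in Rip-B7xAI4. Ccl3 was high on Rip-B7xAI4 replicate 2, with a low myeloid marker mean, and on replicates 1 and 3, with high ones. The part of myeloid RNA in these values was not tested. The difference was 3.74 to 3.998 with 1 array left out, but the adjusted p was above 0.05 when the array left out was replicate 2 of AI4 (0.0687), replicate 3 of AI4 (0.0591), replicate 1 of Rip-B7xAI4 (0.151) or replicate 3 of Rip-B7xAI4 (0.0698). Without both Rip-B7xAI4 replicates 1 and 3 it was 4.18 ± 0.31, with an adjusted p = 0.484 by limma. Ccl5, another chemokine, differed by 1.32 ± 0.19, Ccl4 by 0.67 ± 0.20 and Plek, which encodes pleckstrin, by 3.86 ± 0.37. For these genes the groups did not overlap, and adjusted p was 0.145 to 0.484 by limma. In all, 6 of the 34 had an unadjusted p under 0.05 in the higher direction, where 5.56% of all genes did, and 0 in the lower, where 3.17% did. Given how the list was chosen, these counts are a description. Ccl4 differed by 1.02 ± 0.24 and Plek by 3.69 ± 0.62 without Rip-B7xAI4 replicates 1 and 3. The median of the list was 0.17.

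**Figure D4:**
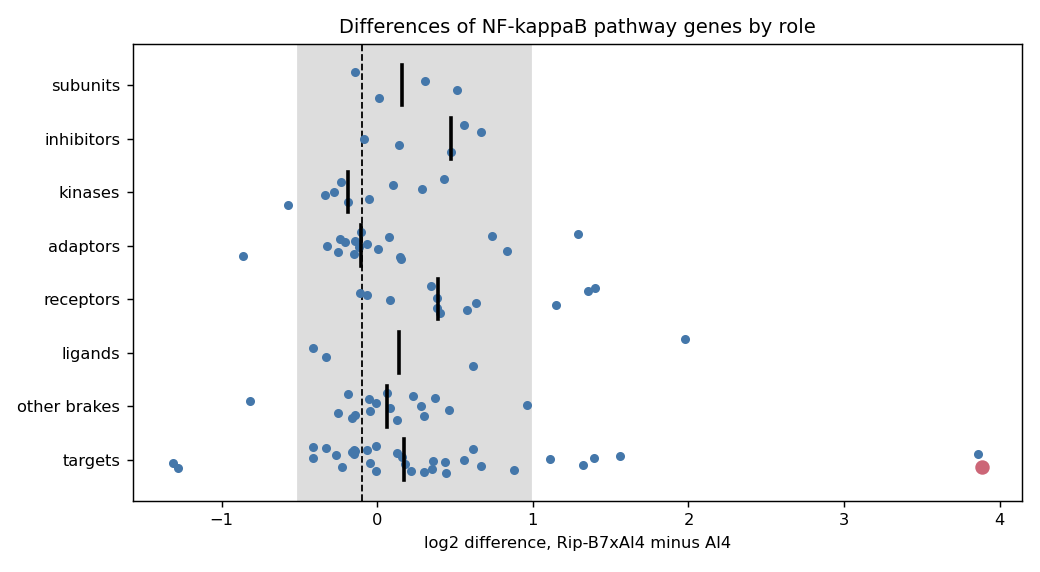
Log2 difference between groups, Rip-B7xAI4 minus AI4 (horizontal axis), for the tested genes of each list (rows), with 1 point per gene, spread vertically for legibility. Black bars are list medians, the grey band holds the middle of all genes tested (5th to 95th percentile, -0.51 to 0.99) and the dashed line is their median, -0.10. The large red point, Ccl3, is the only gene shown that passed an adjusted p of 0.05.

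Genes with and without a kappaB match near the start were set side by side. Of the tested genes with a promoter window, 694 held the consensus and 10350 did not, with median differences of -0.10 and -0.09. Among the 694, 37 had an unadjusted p under 0.05 in the higher direction (5.33%, against 5.56% of all genes tested) and 19 in the lower (2.74%, against 3.17%). The share of genes with a match was 37.5% in the target list (12 of 32 with a window) and 5.14% among all 27025 genes with a window. The target list was drawn up with knowledge of NF-kappaB, so its share of matches is a description.

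**Figure D5:**
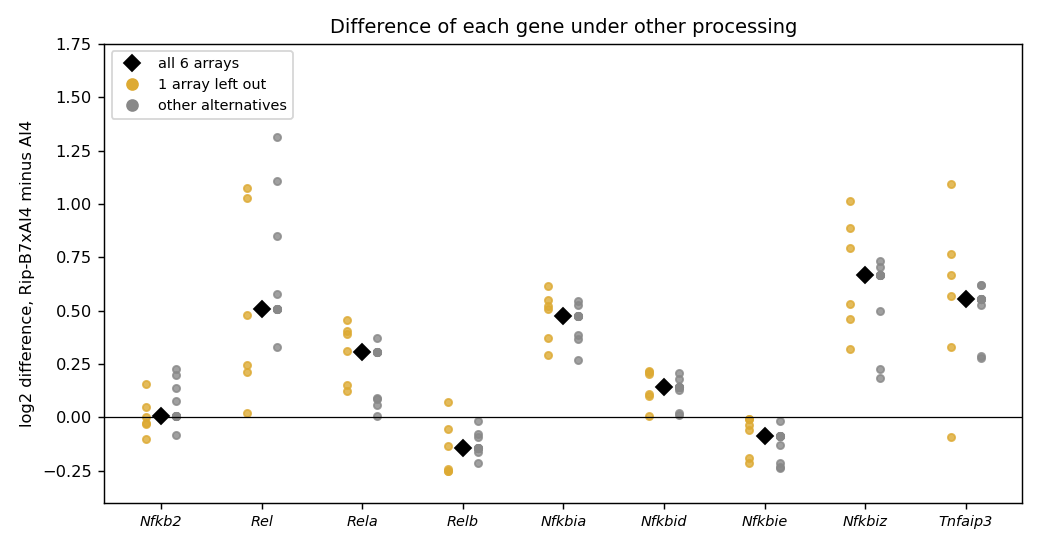
Log2 difference of each gene, Rip-B7xAI4 minus AI4 (vertical axis), with all 6 arrays (black diamonds), with 1 array left out (yellow points) and under the other alternatives (grey points). Rel ranged from 0.02 to 1.31 and Tnfaip3 from -0.09 to 1.09, whereas Nfkbid stayed between 0.01 and 0.22 and Nfkbie between -0.24 and -0.01.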

How the data were processed

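Total RNA of sorted cells was labelled with biotin and hybridised to Affymetrix arrays, per the labels' protocols. The authors used Affymetrix Expression Console, per the submitters' processing notes, and the sources used here do not give its algorithm. Per probe and array, 1 value was deposited by the authors, read as log2 from the range of the values, and was used unchanged. Of 28325 probes, 21760 had 1 gene symbol in the platform annotation. The probe with the highest mean over 6 arrays was kept per gene, and the 30% of genes with the lowest mean (limit 5.471) were not tested. Groups came from the sample titles. The fit used limma 3.58.1 (lmFit, eBayes) in R 4.3.3, two-sided, with a group term and no block, and Benjamini-Hochberg adjustment over 13950 genes. The alternatives left out arrays or changed the normalization, the filter, the probe choice, the variance model or the covariates. The fit was tested on simulated data. The genes, lists and alternatives were chosen with earlier results of these data known. Genes named are the chosen genes, up to 4 per pathway list by smallest p and the 3 nearest in profile to each of 3 genes. Of the T cell markers, those named are the brightest and those with the largest differences. No 2 arrays held the same values (highest correlation 0.959).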

Additional observations from a re-analysis of the deposited data

How the results depend on the processing

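Of 152 values of the 9 genes under 17 alternatives, 146 kept their direction and 6 turned it, and 0 of the 9 genes passed under any alternative (lowest adjusted p = 0.231 by limma, for Nfkbia with array weights). Unadjusted p by limma, under 0.05 for 0 of the 9 with all arrays, fell under it in some alternatives. This held for Nfkbiz with the replicate block (0.023) and without AI4 replicate 1 (0.035). It also held for Nfkbia without Rip-B7xAI4 replicate 3 (0.043), and for Nfkbia (0.023) and Rel (0.047) with array weights. Relb could not be tested with the 50% filter. Of the turned values, Nfkb2 was -0.081 after quantile normalization and -0.10 to 0.16 with 1 array left out, Relb was -0.25 to 0.071 and Tnfaip3 -0.093 to 1.09 with 1 array left out. With the replicate block, 0 genes and 0 pathway genes passed, and Nfkbiz differed by 0.67 ± 0.21 (SE, adjusted p = 0.585 by limma). Same-numbered arrays of the groups did not deviate together over all genes tested (correlations -0.08, 0.06 and -0.22), so the numbers were not taken as pairs. The count of all genes passing, 1 with all arrays, was 0 to 22 with 1 array left out (the 22 when it was Rip-B7xAI4 replicate 2), 0 when leaving out Rip-B7xAI4 replicates 1 and 3 (the lone array is assumed to vary like AI4), 0 with the myeloid covariate, and reached 38 when arrays were weighted. The count of pathway genes passing, also 1, was 0 to 1, 0, 0 and 3 in the same order. The cause was not tested. With array weights Rel differed by 1.31. A change of pseudocount did not apply to log2 values. How far values lie above background is not known.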
